A study of Mus musculus with 6 samples.

Results

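The genes described here are 32 genes of sterol and fatty acid synthesis in cultured mouse embryonic stem cells, which derive from the preimplantation embryo and are pluripotent. They were chosen by name from the known enzymes and regulators of these pathways, among the 24083 gene symbols of the table. The choice was made with earlier results of these data known. There were 16 enzymes of the sterol branch, 5 regulators of the SREBP system and 11 genes of the fatty acid branch. Polyadenylated RNA was sequenced from cells whose Nanog is wild type (WT, 3 libraries) and from cells that carry Nanog R153A (R153A, 3 libraries). NANOG is a homeodomain factor that sustains pluripotency. Both groups were kept on gelatin in medium with serum and LIF, a cytokine that sustains self-renewal, under normal culture. The sources used here do not say how the R153A change was made or whether replicates are separate cultures or clones. The p-values thus measure only the spread between these libraries, which may be technical.

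Cholesterol is built from acetyl-CoA through mevalonate, isoprenoid units, squalene and lanosterol, and each step has its own enzyme. Fatty acids are built from the same acetyl-CoA by carboxylation, chain synthesis, elongation and desaturation. Both branches are controlled by the SREBP transcription factors. These are made as membrane precursors in the endoplasmic reticulum, where SCAP escorts them towards cleavage and the INSIG proteins hold SCAP back when sterols are plentiful. SREBP-2 acts mainly on sterol genes and SREBP-1 mainly on fatty acid genes, and both bind promoters together with partners such as NF-Y, which recognises CCAAT.

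The promoters of 6 members are shown because they cover the 3 largest rises of the sterol branch (Idi1, Lss and Sc5d), its single fall (Ebp), the feedback gene Insig1 and Fasn. Each is 300 bases of RefSeq sequence on GRCm38.p6, 250 before and 50 after the start site, and the capitals mark CCAAT on either strand (it reads ATTGG when on the other strand) or the palindrome CACGTG. That build differs from the authors' mm9. The windows are chr13:8885356-8885655 on the plus strand for Idi1, chr10:76531355-76531654 on the plus strand for Lss and chr9:42264251-42264550 on the minus strand for Sc5d. They are chrX:8193463-8193762 on the minus strand for Ebp, chr5:28071162-28071461 on the plus strand for Insig1 and chr11:120824498-120824797 on the minus strand for Fasn.
Idi1: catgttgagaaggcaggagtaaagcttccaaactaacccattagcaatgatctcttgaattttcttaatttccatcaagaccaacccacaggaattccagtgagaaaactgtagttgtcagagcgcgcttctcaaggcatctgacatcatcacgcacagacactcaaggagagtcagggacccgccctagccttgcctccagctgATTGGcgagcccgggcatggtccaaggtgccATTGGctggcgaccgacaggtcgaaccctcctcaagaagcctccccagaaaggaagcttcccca
Lss: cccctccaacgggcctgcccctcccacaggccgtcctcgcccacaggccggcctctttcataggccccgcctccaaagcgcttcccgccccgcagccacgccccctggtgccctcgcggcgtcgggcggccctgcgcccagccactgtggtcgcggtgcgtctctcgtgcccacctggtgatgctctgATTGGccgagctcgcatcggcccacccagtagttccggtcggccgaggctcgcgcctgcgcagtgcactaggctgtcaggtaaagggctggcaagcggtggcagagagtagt
Sc5d: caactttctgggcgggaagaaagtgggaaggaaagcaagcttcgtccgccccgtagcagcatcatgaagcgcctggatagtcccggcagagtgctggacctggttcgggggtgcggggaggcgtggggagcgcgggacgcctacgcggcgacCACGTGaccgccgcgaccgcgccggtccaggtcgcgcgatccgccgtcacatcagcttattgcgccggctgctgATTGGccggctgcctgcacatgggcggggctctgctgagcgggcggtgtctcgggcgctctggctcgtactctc
Ebp: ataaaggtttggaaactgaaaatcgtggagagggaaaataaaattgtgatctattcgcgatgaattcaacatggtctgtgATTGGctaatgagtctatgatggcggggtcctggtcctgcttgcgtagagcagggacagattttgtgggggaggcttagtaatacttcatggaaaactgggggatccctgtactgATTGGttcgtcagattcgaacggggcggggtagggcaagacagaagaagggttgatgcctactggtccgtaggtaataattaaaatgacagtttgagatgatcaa
Insig1: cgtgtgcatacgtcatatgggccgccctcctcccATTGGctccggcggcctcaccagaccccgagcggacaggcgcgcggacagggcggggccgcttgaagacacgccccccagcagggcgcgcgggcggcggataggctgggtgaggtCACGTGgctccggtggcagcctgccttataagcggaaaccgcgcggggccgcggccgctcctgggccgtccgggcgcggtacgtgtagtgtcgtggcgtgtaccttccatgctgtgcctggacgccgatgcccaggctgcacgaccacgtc
Fasn: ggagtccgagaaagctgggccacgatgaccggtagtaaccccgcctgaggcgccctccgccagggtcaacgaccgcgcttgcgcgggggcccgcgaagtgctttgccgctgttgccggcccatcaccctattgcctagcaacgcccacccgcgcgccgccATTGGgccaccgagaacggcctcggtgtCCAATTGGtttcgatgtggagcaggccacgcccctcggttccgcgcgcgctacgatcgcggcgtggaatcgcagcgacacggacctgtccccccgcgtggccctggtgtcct

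All 6 of these windows held CCAAT, and those of Sc5d and Insig1 also held CACGTG, the E-box that SREBPs and other basic helix-loop-helix factors bind. Of the 32 members, 26 had a promoter in the RefSeq table, with 34 start sites among them. Fads1, Fdft1, Fdps, Scd1, Scd2 and Sqle had none there. The windows were searched on both strands for CCAAT and for the E-box. The Sp1 site GGGCGG was searched too. TCACNCCAC, a form of the sterol regulatory element, made up the 4 motifs. No site of one motif overlapped a site of another in the member windows. CCAAT lay in 12 of the 16 sterol-branch windows, in 5 of 10 regulator windows and in 4 of 8 fatty-acid windows. It lay in 37.4% of all 32851 windows of the same length and in 38.2% of those of the genes tested for expression. CACGTG lay in 7 of the 34 member windows, against 7.15% of all windows and 10.3% of those of tested genes. The Scap windows overlap and share the same CACGTG, which was counted in each of them. GGGCGG lay in 24 of 34, against 35.7% and 65.2%. TCACNCCAC lay in no member window and in 1.24% of all windows. By direction of change, CCAAT was found in 6 of 12 windows of members that rose, in 4 of 5 of those that fell and in 11 of 17 of the others. Start sites of 1 gene share their gene, so these windows are not independent.

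Levels are in FPKM, a fragment count scaled by gene length and library size, so genes can be compared per length. Errors are SDs over 3 libraries. Fold changes are differences of log2(FPKM + 1), R153A minus WT, a scale that compresses changes of weakly expressed genes. Column sums lay between 360152 and 382086 FPKM, and the read depth is unknown. Of 11817 genes with at least 1 FPKM in 3 or more libraries, 7062 (59.8%) passed a limma adjusted p under 0.05, 4428 higher (37.5%) and 2634 lower (22.3%) in R153A. For 65.0% of these genes the groups did not overlap. The higher genes were 62.7% of the calls, but 48.1% under quantile normalization, which gives every library the same distribution of values. Nanog itself stood at 241, 259 and 258 FPKM in WT and 119, 122 and 129 FPKM in R153A (limma adjusted p = 2.5e-08, exact two-sided permutation p = 0.1, the smallest that 3 against 3 allow). An FPKM value does not show the changed residue, so it does not check the labels.

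The label of the cells was checked on 3 marker lists of 7 genes. The summed FPKM of the embryonic stem cell markers (Pou5f1, Zfp42, Dppa5a, Dppa4, Tdgf1, Utf1 and Sall4) lay between 3834 and 4571 in WT and between 2114 and 2213 in R153A. Dppa5a was the largest single part of these sums and of their difference. It stood between 2355 and 2996 FPKM in WT and between 919 and 959 FPKM in R153A. Fibroblast and feeder markers (Col1a1, Col1a2, Col3a1, Thy1, Postn, Lum and Dcn) summed to between 5.55 and 6.36 FPKM in WT and between 8.07 and 8.90 in R153A. Of these 7 genes, 4 stayed under 1 FPKM in all 6 libraries, and Lum was listed at 0 in every WT library. Col1a1 rose and Thy1 did not pass, while Col1a2 was under 1 FPKM in every WT library, was tested only because of its R153A values and had to differ. Primitive endoderm markers (Gata4, Gata6, Sox17, Sox7, Pdgfra, Dab2 and Afp) summed to between 3.20 and 4.49 FPKM in WT and between 2.57 and 3.19 in R153A, with 5 under 1 FPKM in all 6 libraries. Of the 7 markers, Sox7 fell from between 1.75 and 2.69 FPKM to between 0.183 and 0.366 FPKM, entered the test only through WT and had to differ. Without Sox7, a split made after the values were seen, the sum lay between 1.44 and 1.96 FPKM in WT and between 2.21 and 2.90 FPKM in R153A, wholly higher. In that remainder Dab2 stood between 0.0107 and 0.0157 FPKM in WT and between 0.595 and 0.779 FPKM in R153A. Of the stem cell markers 5 of 7 fell (71.4%) and 2 did not pass, beside 22.3% lower over all genes tested. Dppa4 was among those that fell, although its groups overlapped (log2 fold change -0.17, limma adjusted p = 0.0464). The part of these differences in the results on lipid genes was not tested. In such bulk samples fewer cells of a type and less RNA per cell cannot be told apart.

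All 32 members passed the expression filter, with no value under 2.16 FPKM in any library. Of them 13 rose, 6 fell and 13 did not pass. The 19 calls are 59.4% of the members, near the 59.8% of all genes tested, so the number of calls does not set the members apart. In the sterol branch 9 of 16 enzymes rose, 1 fell and 6 did not pass, with a median log2 fold change of 0.24 beside 0.071 over all genes tested. The share that rose was 56.25%, against 37.5% of all genes, and the share that fell was 6.25%, against 22.3%. In the fatty acid branch 3 of 11 genes rose, 5 fell and 3 did not pass, with a median of -0.027. There 27.3% rose and 45.5% fell. The difference between the branches was not tested. The members were chosen with earlier results of these data known, so their shares are not an unbiased contrast with all genes. For the 8 fatty acid genes without Acly, Acss2 and Lpin1, which also serve other pathways, 2 rose, 3 fell and 3 did not pass, and the median was 0.0014. Of the 5 SREBP regulators 1 rose and 4 did not pass. The groups did not overlap for 24 of the 32 members, 17 higher and 7 lower in R153A, beside the 65.0% of all genes. Among the members only Scd2 had a log2 fold change of 1 or more in size.

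**Figure D1:**
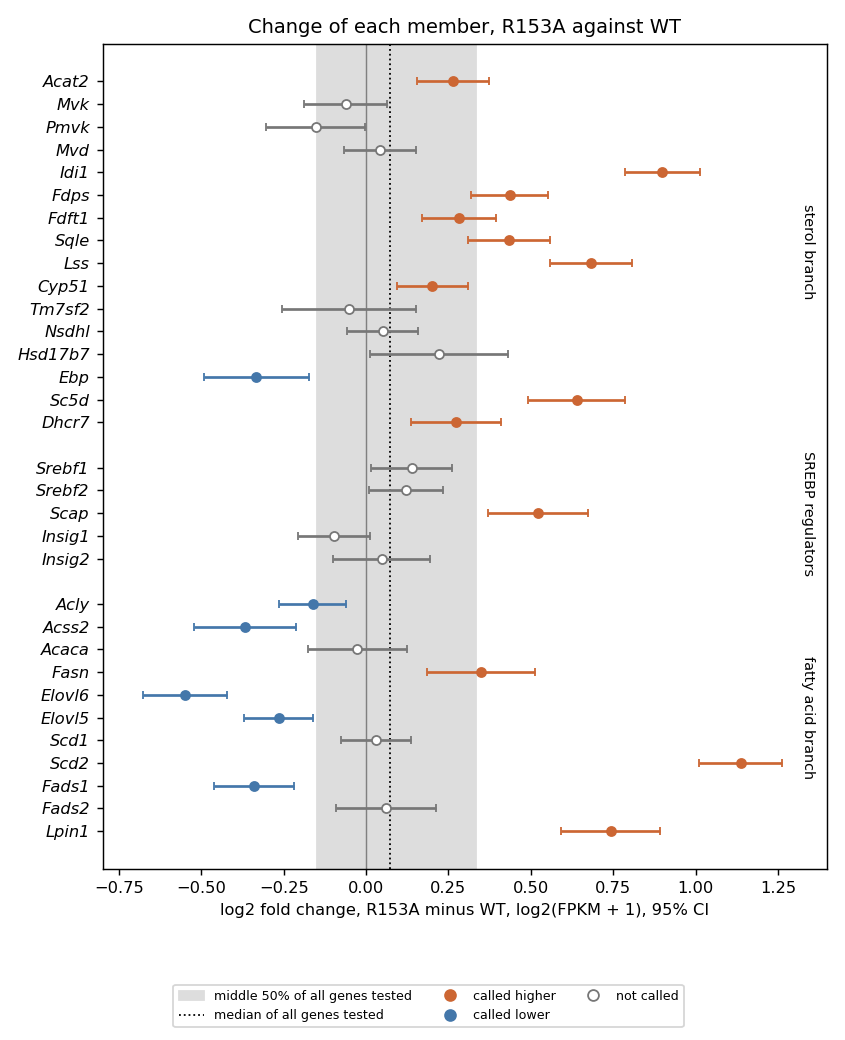
Log2 fold change of each of the 32 members, R153A minus WT on the log2(FPKM + 1) scale, on the x axis, with bars for the 95% confidence interval of the limma fit. Filled points passed an adjusted p under 0.05, the grey band holds the middle 50% of all genes tested and the dotted line their median; in the sterol branch Idi1, Lss, Sc5d, Fdps and Sqle lie right of the band and Ebp and Pmvk left of it, and in the fatty acid branch Scd2, Lpin1 and Fasn lie right and Elovl6, Acss2, Fads1, Elovl5 and Acly left, while of the regulators Scap lies right.

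The first enzymes of the sterol branch make mevalonate and turn it into isoprenoid units. Acat2, the cytosolic thiolase that joins acetyl-CoA units, rose from 34.0 ± 0.852 to 41.0 ± 1.64 FPKM, by 0.26 on the log2 scale (SE 0.0499, limma adjusted p = 8.5e-04). The 3 enzymes that act on mevalonate in turn did not pass. Mevalonate kinase, Mvk, stood at 16.3, 16.6 and 17.8 FPKM in WT and 15.5, 16.6 and 16.4 FPKM in R153A, and the ranges of the groups overlapped (limma adjusted p = 0.377). Phosphomevalonate kinase, Pmvk, stood at 24.1, 24.9 and 27.9 FPKM in WT and 21.2, 23.6 and 24.0 FPKM in R153A. All R153A values of Pmvk were the lower ones, but the limma adjusted p was 0.0748, and it became 0.0163 (called lower) under median-ratio scaling, which divides each library by its median ratio to the geometric mean of the libraries. The limma adjusted p was 0.256 without WT replicate 3 and 0.282 without R153A replicate 1. Mevalonate diphosphate decarboxylase, Mvd, stood at 28.2 ± 0.914 FPKM in WT and 29.0 ± 0.666 FPKM in R153A (log2 fold change 0.041, SE 0.0495, limma adjusted p = 0.494).

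Idi1 showed the largest rise of the sterol branch. It encodes isopentenyl diphosphate isomerase, which makes the activated isoprenoid that starts chain growth. Idi1 stood at 26.9, 28.1 and 27.7 FPKM in the WT libraries and 51.9, 49.9 and 55.1 FPKM in the R153A libraries. The groups were far apart, with a 1.898-fold higher mean in R153A (log2 fold change 0.90, SE 0.0518, limma adjusted p = 8.3e-08). Fdps, which joins isoprenoid units to farnesyl diphosphate, was the most abundant sterol enzyme per length in both groups. It stood at 101, 96.5 and 97.4 FPKM in WT and 126, 142 and 131 FPKM in R153A, again without overlap (log2 fold change 0.44, SE 0.0524, limma adjusted p = 3.0e-05). Reads of Fdps are uncertain. In GENCODE M21, 4 processed pseudogenes matched 74.3% to 76.9% of its longest coding transcript at 95% identity or more, and the gene model Gm43738 shared 77.4% of its exon bases on the same strand. Acat2 shares 65.6% of its transcript with Acat3 at that identity (the matches of Idi1 and Fdft1 to their pseudogenes Gm13502 and Gm6781 cover 22.6% and 33.8%), and Acat3 rose as well, from 3.82 to 4.86 FPKM (limma adjusted p = 0.00682). Tcp1 matches 19.8% of the Acat2 transcript, and whether that stretch overlaps the one shared with Acat3 was not tested. Tcp1 stood at 180.4 FPKM in WT and 187 FPKM in R153A and was not called.

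The enzymes from squalene to lanosterol all rose. Fdft1, squalene synthase and the first step committed to sterols, stood at 27.8, 28.9 and 29.4 FPKM in WT and 34.2, 34.6 and 36.6 FPKM in R153A (log2 fold change 0.28, SE 0.0503, limma adjusted p = 5.7e-04). It shares 20.9% of its exon bases with Ctsb on the opposite strand, and the use of strand in the counting is not given in the sources used here. Ctsb stood at 17.2 FPKM in WT and 17.8 FPKM in R153A and was not called. Sqle, squalene epoxidase and a control point of the pathway, stood at 34.1, 39.0 and 35.8 FPKM in WT and 48.8, 48.9 and 50.2 FPKM in R153A. The lowest R153A value lay above the highest WT value, and the mean was 1.36-fold higher (log2 fold change 0.43, SE 0.0558, limma adjusted p = 5.1e-05). Lss closes the epoxide to lanosterol and stood at 15.3, 16.96 and 15.6 FPKM in WT and 26.8, 25.2 and 26.7 FPKM in R153A. Its mean was 1.64-fold higher in R153A, the next largest rise of the branch after Idi1 (log2 fold change 0.68, SE 0.0566, limma adjusted p = 1.5e-06).

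Beyond lanosterol Cyp51, Sc5d and Dhcr7 rose, Ebp fell and the other 3 members did not pass. Cyp51, the lanosterol demethylase, rose from 24.7 ± 0.635 to 28.6 ± 0.429 FPKM, by 0.20 on the log2 scale (SE 0.0483, limma adjusted p = 0.00403), the smallest rise called in the branch. Tm7sf2, a sterol reductase, stood at 7.02 ± 0.901 FPKM in WT and 6.72 ± 0.571 FPKM in R153A, with overlapping groups (log2 fold change -0.051, SE 0.0921, limma adjusted p = 0.652). Nsdhl, which works with Hsd17b7 in the removal of the methyl groups at position C4, stood at 19.4, 19.5 and 19.9 FPKM in WT and 20.6, 20.2 and 20.2 FPKM in R153A. Its groups did not overlap, yet the log2 fold change was 0.050 (95% confidence interval -0.058 to 0.16, limma adjusted p = 0.401). Hsd17b7 had the lowest WT mean of all 32 members, at 2.49, 2.50 and 2.63 FPKM in WT and 3.00, 2.71 and 3.74 FPKM in R153A. Its R153A values lay above the WT values with a wide spread (limma adjusted p = 0.0649), and without R153A replicate 2 it passed (0.0221). Its log2 fold change of 0.22 was 0.12 without R153A replicate 3 (limma adjusted p = 0.283) and 0.028 under quantile normalization (limma adjusted p = 0.8).

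The last members of the branch included its single fall. Ebp, the sterol isomerase that moves a double bond of the ring system, stood at 18.3, 19.8 and 20.5 FPKM in the WT libraries and 15.0, 14.0 and 16.9 FPKM in the R153A libraries. Every R153A value was below every WT value, and the mean was 1.27-fold lower (log2 fold change -0.33, SE 0.0721, limma adjusted p = 0.00209). Sc5d, the desaturase that acts after Ebp, went the other way, with 7.64, 8.77 and 7.72 FPKM in WT and 13.1, 13.5 and 12.6 FPKM in R153A. The Sc5d groups were well apart, with a 1.62-fold higher mean in R153A (log2 fold change 0.64, SE 0.0670, limma adjusted p = 9.9e-06). Dhcr7, which makes cholesterol from 7-dehydrocholesterol, rose from 21.3 ± 1.72 to 25.9 ± 0.457 FPKM, by 0.27 on the log2 scale (SE 0.0615, limma adjusted p = 0.00271). By stage, 3 of the 6 enzymes from Acat2 to Fdps rose and none fell, and 6 of the 10 from Fdft1 to Dhcr7 rose and 1 fell, beside 37.5% higher and 22.3% lower over all genes tested.

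**Figure D2:**
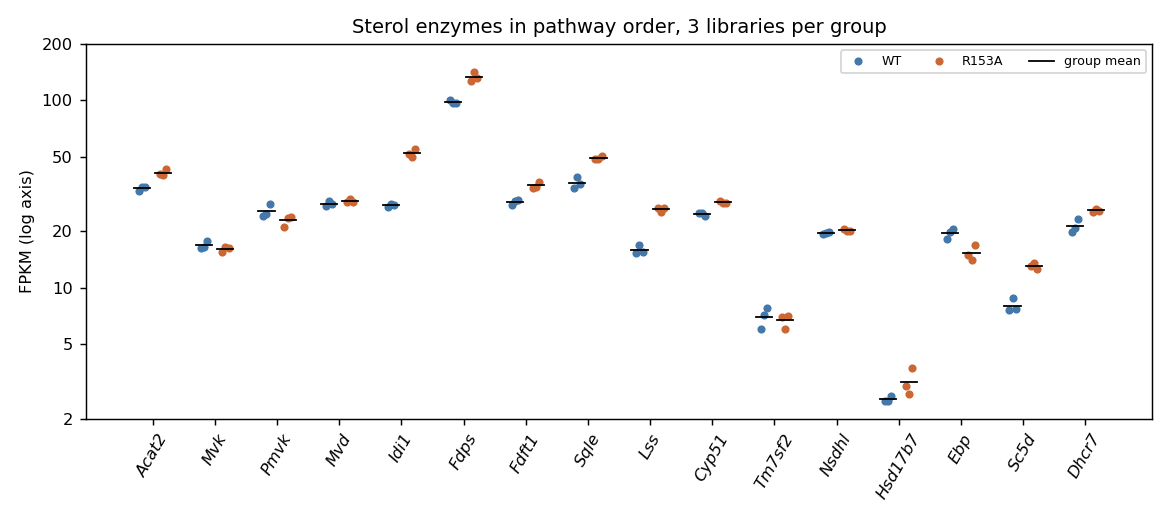
FPKM of the 16 sterol enzymes in pathway order (y axis, log scale), with 1 point per library and a line for the group mean. R153A points lie above the WT points without overlap for Acat2, Idi1, Fdps, Fdft1, Sqle, Lss, Cyp51, Nsdhl, Hsd17b7, Sc5d and Dhcr7, and below them for Pmvk and Ebp.

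Of 11 further names of the sterol pathway, Sc4mol (an older name of Msmo1) and Erg28 were not symbols of the table, and Hmgcs1 was listed at 0 in all 6 libraries. That gene is in general use in cells, and the listed 0 may not be a measured absence. Of the 8 tested genes 4 rose (50%), none fell and 4 did not pass (Ggps1, Dhdds, Nus1 and Aacs). Over all genes tested 37.5% rose and 22.3% fell. Msmo1, the methyl oxidase that acts with Nsdhl, rose from 41.4 ± 1.11 to 55.4 ± 2.02 FPKM (limma adjusted p = 2.5e-05). Lbr, which shares the reductase activity of Tm7sf2, rose from 64.0 ± 4.31 to 71.7 ± 1.68 FPKM, by 0.16 on the log2 scale (SE 0.0556, limma adjusted p = 0.0251). The call of Lbr was lost in 6 of 16 alternatives, with adjusted p = 0.0912 without WT replicate 1, 0.0668 without R153A replicate 1 and 0.0888 without R153A replicate 3.

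Of the regulators Scap rose, and the genes of the SREBPs and INSIGs did not pass. Srebf2, which encodes SREBP-2, stood at 64.1, 71.2 and 65.9 FPKM in WT and 74.0, 71.4 and 73.5 FPKM in R153A. The groups did not overlap by a narrow margin, and the change did not pass (log2 fold change 0.12, SE 0.0509, limma adjusted p = 0.0612, 95% confidence interval 0.0083 to 0.23). Without WT replicate 2, the highest WT value, it passed (0.00968). Srebf1, which encodes SREBP-1, stood at 12.8, 13.1 and 13.6 FPKM in WT and 15.0, 14.6 and 14.1 FPKM in R153A, also just without overlap (log2 fold change 0.14, SE 0.0555, limma adjusted p = 0.0511). It passed with no filter on low values (0.0353) and without WT replicate 3 (0.049). The log2 fold change of Srebf1 was 0.080 under median-ratio scaling and 0.065 under quantile normalization (limma adjusted p = 0.197 and 0.29), and that of Srebf2 was 0.059 under median-ratio scaling (0.218).

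Scap encodes the sterol-sensing escort of the SREBPs and stood at 7.05, 8.36 and 7.81 FPKM in the WT libraries and 11.6, 11.3 and 11.7 FPKM in the R153A libraries. Its mean was 1.49-fold higher in R153A, and no library overlapped (log2 fold change 0.52, SE 0.0688, limma adjusted p = 6.1e-05). A transcript model on the opposite strand, 5830462I19Rik, covers 18.6% of the exon bases of Scap. Insig1, the feedback inhibitor whose own gene is a classical SREBP target, stood at 60.1, 63.0 and 61.8 FPKM in WT and 55.7, 60.5 and 56.4 FPKM in R153A. The groups overlapped, and the change did not pass (log2 fold change -0.098, SE 0.0492, limma adjusted p = 0.108). The 95% confidence interval was -0.21 to 0.011, and under median-ratio scaling Insig1 was called lower (log2 fold change -0.16, limma adjusted p = 0.017). Whether SREBP activity differed between the groups was not tested. Insig2, the related inhibitor, stood at 6.46 ± 0.309 FPKM in WT and 6.71 ± 0.284 FPKM in R153A (log2 fold change 0.047, SE 0.0665, limma adjusted p = 0.566).

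Around the SREBP system, 9 genes of its processing and turnover were tested, and 3 rose, 3 fell and 3 did not pass (median log2 fold change 0.12), beside 37.5% higher and 22.3% lower over all genes. Trc8, an older name of Rnf139, was not a symbol of the table. The count of 3 that rose was 1 without WT replicate 1. Mbtps2, the protease that makes the second cut in the SREBPs, fell from 14.9 ± 0.433 to 12.2 ± 0.407 FPKM. Paqr3, a Golgi protein that binds SCAP, fell from 4.76 ± 0.348 to 3.18 ± 0.356 FPKM. The limma adjusted p was 0.00164 for Mbtps2 and 7.3e-04 for Paqr3.

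In the fatty acid branch the suppliers of acetyl-CoA fell. Acly, which makes cytosolic acetyl-CoA from citrate, had the highest WT mean of the 32 members and stood at 101, 107 and 99.3 FPKM in WT and 92.8, 90.7 and 89.9 FPKM in R153A. The groups did not overlap, but the fall was small (log2 fold change -0.16, SE 0.0463, limma adjusted p = 0.0107). Acss2, which makes acetyl-CoA from acetate, stood at 3.08, 3.18 and 3.11 FPKM in WT and 2.16, 2.21 and 2.22 FPKM in R153A. Its libraries agreed closely within each group, and the mean was 1.42-fold lower in R153A (log2 fold change -0.37, SE 0.0700, limma adjusted p = 8.9e-04). Under quantile normalization the log2 fold change was -0.56.

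Of the enzymes of chain synthesis Fasn rose and Acaca did not pass. Acaca, acetyl-CoA carboxylase and the committed step, stood at 11.96, 13.7 and 11.7 FPKM in WT and 12.4, 11.8 and 12.4 FPKM in R153A. Its groups overlapped (log2 fold change -0.027, SE 0.0681, limma adjusted p = 0.751), and 64.3% of its transcript matches the processed pseudogene Gm5182 at 95% identity or more. Fasn, the fatty acid synthase, stood at 43.2, 51.0 and 42.7 FPKM in WT and 61.6, 53.9 and 59.3 FPKM in R153A. The lowest R153A value was above the highest WT value, and the mean was 1.28-fold higher (log2 fold change 0.35, SE 0.0740, limma adjusted p = 0.00185).

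Both elongases fell. Elovl6, which extends the saturated products of the synthase, stood at 29.6, 33.1 and 29.4 FPKM in the WT libraries and 20.9, 20.7 and 20.3 FPKM in the R153A libraries. The mean was 1.49-fold lower, the largest fall among the members (log2 fold change -0.55, SE 0.0573, limma adjusted p = 9.4e-06). Elovl5, which extends polyunsaturated chains, stood at 28.7, 29.5 and 29.7 FPKM in WT and 23.9, 24.1 and 24.6 FPKM in R153A (log2 fold change -0.26, SE 0.0474, limma adjusted p = 5.8e-04). The ratio of Elovl6 to Elovl5 within a library was 1.03, 1.12 and 0.992 in WT and 0.876, 0.860 and 0.825 in R153A. Every R153A ratio was below every WT ratio.

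The stearoyl-CoA desaturases put the first double bond into saturated chains, and of these Scd2 rose while Scd1 did not pass. Scd2, the form of brain and embryo, stood at 66.1, 71.3 and 62.9 FPKM in the WT libraries and 147, 142 and 155 FPKM in the R153A libraries. It had the largest change of all 32 members, with a 2.22-fold higher mean (log2 fold change 1.14, SE 0.0572, limma adjusted p = 3.1e-08). Scd1, the form of liver and fat, stood at 24.6, 25.3 and 25.9 FPKM in WT and 25.9, 25.4 and 26.2 FPKM in R153A, with overlapping groups (log2 fold change 0.030, SE 0.0486, limma adjusted p = 0.618, 95% confidence interval -0.077 to 0.14). The ratio of Scd2 to Scd1 within a library was 2.69, 2.82 and 2.43 in WT and 5.68, 5.57 and 5.94 in R153A, a measure that a constant factor per library does not move. The genes lie near each other on one chromosome, and 11.4% of the Scd2 transcript matches Scd1 at 95% identity or more. The microRNA gene Mir5114 overlaps Scd2, and its listed rise from 83.7 to 180.5 FPKM cannot be told apart from that of Scd2.

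Of the desaturases of polyunsaturated fatty acids Fads1 fell and Fads2 did not pass. Fads1 stood at 22.3, 23.7 and 21.6 FPKM in WT and 17.2, 18.1 and 17.5 FPKM in R153A and fell without overlap (log2 fold change -0.34, SE 0.0552, limma adjusted p = 2.9e-04). Its neighbour Fads2 stood at 37.1, 42.6 and 38.6 FPKM in WT and 42.3, 37.5 and 43.8 FPKM in R153A, with overlapping groups (log2 fold change 0.061, SE 0.0688, limma adjusted p = 0.463). The ratio of Fads2 to Fads1 was 1.66, 1.80 and 1.79 in WT and 2.47, 2.07 and 2.51 in R153A. Lpin1, the phosphatidate phosphatase that makes diacylglycerol for lipid assembly, stood at 3.17, 3.45 and 3.40 FPKM in WT and 6.37, 6.37 and 6.06 FPKM in R153A. Its mean was 1.87-fold higher in R153A, after Scd2 the largest rise of the fatty acid branch (log2 fold change 0.74, SE 0.0679, limma adjusted p = 3.3e-06).

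**Figure D3:**
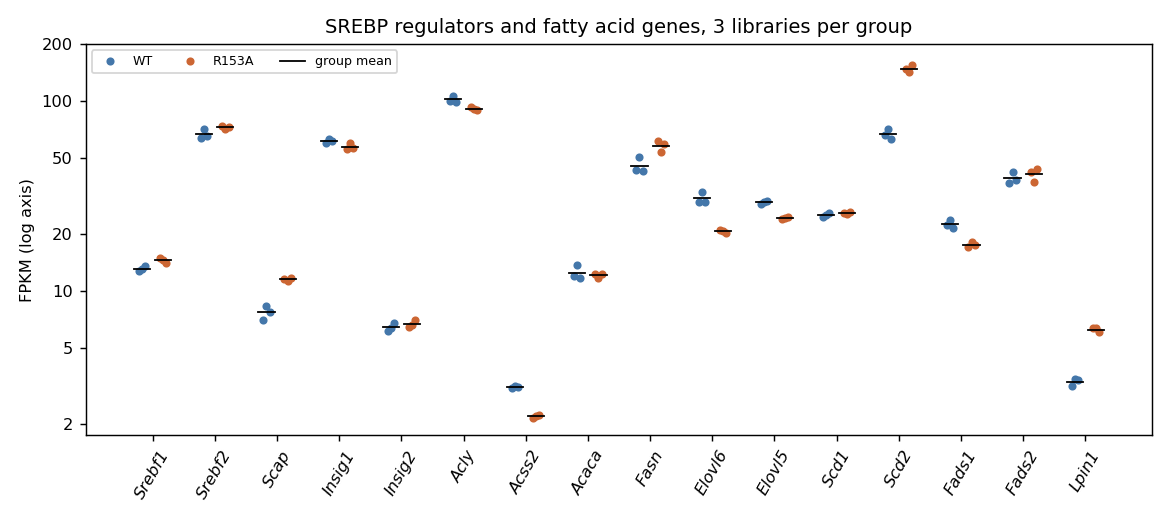
FPKM of the 5 SREBP regulators and the 11 fatty acid branch genes (y axis, log scale), with 1 point per library and a line for the group mean. R153A points lie above the WT points without overlap for Srebf1, Srebf2, Scap, Fasn, Scd2 and Lpin1 and below them for Acly, Acss2, Elovl6, Elovl5 and Fads1.

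The ratios of 5 related pairs were tested within libraries. For Scd2 over Scd1 the log2 ratio was 1.12 higher in R153A (SE 0.0691), for Fads2 over Fads1 0.42 higher (SE 0.0952), and for Elovl6 over Elovl5 it fell by 0.30 (SE 0.0593). Each of these 3 pairs had groups without overlap and an exact two-sided permutation p = 0.1, the smallest that 3 against 3 libraries allow, and 0.167 after Benjamini-Hochberg adjustment over the 5 pairs. The design cannot bring such a p under 0.05. Srebf2 over Srebf1 was 5.02, 5.45 and 4.86 in WT and 4.94, 4.90 and 5.22 in R153A (exact permutation p = 0.7, 0.7 adjusted). Insig1 over Insig2 was 9.70, 9.86 and 9.09 in WT and 8.59, 9.15 and 8.03 in R153A (exact permutation p = 0.2, 0.25 adjusted). The ratios of the Srebf and Insig pairs thus overlapped between the groups.

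**Figure D4:**
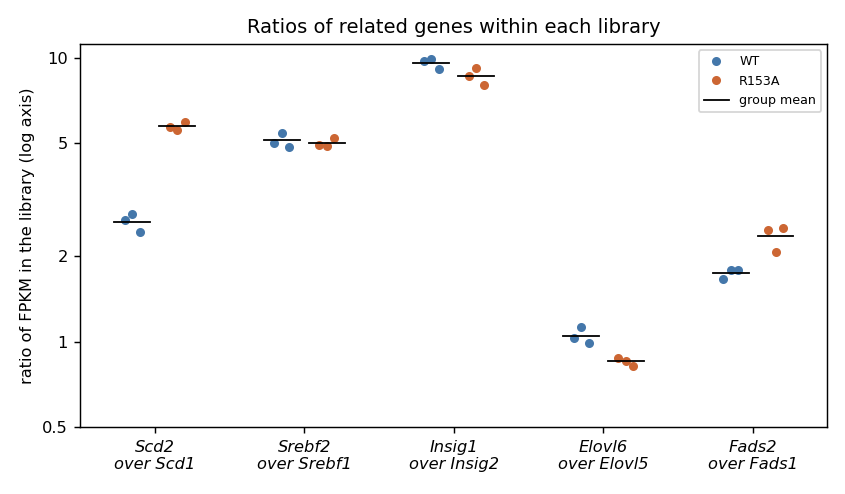
Ratio of FPKM of 2 related genes within each library (y axis, log scale) for 5 pairs, with 1 point per library and a line for the group mean. The Scd2 to Scd1 ratio lies between 2.43 and 2.82 in WT and between 5.57 and 5.94 in R153A, and the Srebf2 to Srebf1 ratios overlap.

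The branches can be set side by side in each library. The mean log2(FPKM + 1) of the 16 sterol enzymes was 4.350, 4.423 and 4.432 in WT and 4.623, 4.620 and 4.679 in R153A, without overlap. The mean of the 11 fatty acid genes was 4.572, 4.685 and 4.578 in WT and 4.679, 4.640 and 4.682 in R153A, and WT replicate 2 lay above all R153A libraries. The sterol mean minus the fatty acid mean was -0.222, -0.261 and -0.146 in WT and -0.0562, -0.0199 and -0.00282 in R153A, closer to 0 in every R153A library. The medians of the log2 fold changes of the branches differed by 0.27. No test was made on these means, since the members were chosen as a group. In summed FPKM the fatty acid genes also stood higher in R153A, at 452, 433 and 458 against 371, 403 and 368 in WT, without overlap. The difference of the group means was 66.8 FPKM for that sum and 81.2 FPKM for Scd2 alone. The other 10 genes summed to 304, 332 and 305 FPKM in WT and 306, 291 and 302 FPKM in R153A, with overlapping groups. Their difference of -14.4 FPKM was -5.36 FPKM without WT replicate 2. The sum over the sterol enzymes was 404, 418 and 419.9 in WT and 507, 522 and 526 in R153A.

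**Figure D5:**
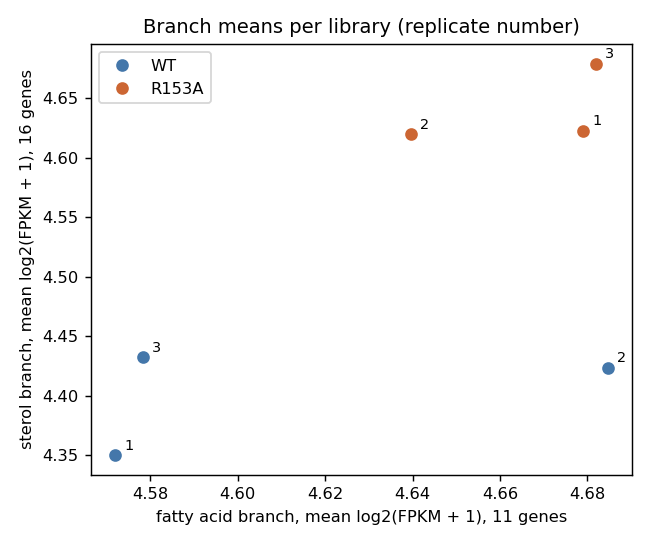
Mean log2(FPKM + 1) of the 16 sterol enzymes (y axis) against that of the 11 fatty acid genes (x axis), 1 point per library with its replicate number. The R153A libraries lie above the WT libraries on the sterol axis, while the groups overlap on the fatty acid axis.

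Genes next to these pathways were counted in the same fit, beside the background of 37.5% higher and 22.3% lower. Of 12 genes of sterol uptake, transport and storage, 8 rose, 1 fell and 3 did not pass, with a median log2 fold change of 0.26. Soat1, which esterifies cholesterol for storage, stood at 9.02, 8.75 and 8.82 FPKM in WT and 19.3, 19.0 and 19.2 FPKM in R153A (log2 fold change 1.03, SE 0.0527, limma adjusted p = 3.5e-08). The lipoprotein receptor gene Vldlr rose from 0.918 ± 0.0438 to 2.55 ± 0.122 FPKM. Its relative Lrp8 rose from 1.91 ± 0.118 to 2.97 ± 0.235 FPKM. No WT library reached 1 FPKM for Vldlr, which was tested only because of its R153A values and had to differ. Lipa, the lysosomal lipase that frees cholesterol from its esters, rose from 1.18 ± 0.137 to 2.02 ± 0.160 FPKM. The gene that fell was the lipoprotein receptor gene Scarb1 (from 27.9 ± 1.21 to 20.7 ± 1.08 FPKM), named after its value was seen. Of 7 genes around LXR, the sterol sensor that drives efflux, 4 were tested, and 2 fell and 2 did not pass. Nr1h2, which encodes LXR beta, fell from 40.0 ± 2.72 to 30.0 ± 2.15 FPKM, and Lpcat3, a phospholipid acyltransferase, fell from 18.1 ± 0.729 to 16.4 ± 0.142 FPKM, by 0.13 on the log2 scale (SE 0.0532, limma adjusted p = 0.0485). The call of Lpcat3 was lost in 8 of 16 alternatives, with limma adjusted p = 0.157 without WT replicate 3, 0.136 without R153A replicate 1, 0.0884 without R153A replicate 2 and 0.118 without R153A replicate 3. Nr1h3, Abca1 and Abcg1 did not pass the filter. Abcg1 stood at 0.604 ± 0.0985 FPKM in WT and 1.04 ± 0.0394 FPKM in R153A, without overlap. Nr1h3 stood at 0.0387 ± 0.0301 FPKM in WT and 0.317 ± 0.126 FPKM in R153A, also without overlap, while the Abca1 groups overlapped. With no filter on low values, 2 genes of this list were called higher.

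Other genes of fatty acid synthesis and activation moved in both directions. Calls over all genes tested were 37.5% higher and 22.3% lower. Of the 17 genes of this list in the fit, 8 were called higher (47.1%), 6 lower (35.3%) and 3 were not called (median 0.097). Of these, Fads3 entered the test only through R153A and Elovl2 only through WT, so both had to differ. The 4 largest changes called were rises. Elovl4, an elongase of very long chains, rose from 1.45 ± 0.153 to 3.87 ± 0.283 FPKM. Elovl1, of the same kind, rose from 8.92 ± 0.617 to 16.7 ± 0.955 FPKM, in contrast to the falls of Elovl5 and Elovl6. Another elongase gene of this list, Elovl7, was named after its value was seen. It fell from 1.88 ± 0.193 to 1.03 ± 0.0455 FPKM (limma adjusted p = 2.9e-04), and Elovl2 was called lower too. The genes Acsl4 (from 13.1 ± 0.320 to 26.4 ± 1.24 FPKM) and Acsl5 (from 3.56 ± 0.381 to 7.83 ± 0.482 FPKM), whose products activate fatty acids with coenzyme A, also rose. Acsl1, of the same kind and named after its value was seen, fell from 8.63 ± 0.411 to 4.54 ± 0.0711 FPKM (limma adjusted p = 1.3e-06). Hacd3 was not a symbol of the table, and its older name Ptplad1 was counted. Elovl3, Acsl6, Mlxipl and Thrsp did not pass the filter.

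Of 19 genes of glycerolipid synthesis, 6 rose (31.6%), 5 fell (26.3%) and 8 did not pass (median 0.065). Over all genes tested 37.5% rose and 22.3% fell. Mogat2, a monoacylglycerol acyltransferase, stood at 0.424, 0.348 and 0.281 FPKM in WT and 5.20, 4.87 and 4.99 FPKM in R153A, and only its R153A values brought it into the test. The acyltransferase genes Agpat4 (from 5.07 ± 0.587 to 12.9 ± 0.596 FPKM) and Agpat6 (from 8.53 ± 0.358 to 14.6 ± 0.0493 FPKM) rose, while Agpat9 fell from 5.72 ± 0.388 to 2.08 ± 0.0398 FPKM. Of 20 genes of fatty acid oxidation 18 were tested, and 5 rose (27.8%), 5 fell (27.8%) and 8 did not pass (median -0.033). The 5 that rose include Cpt1b, which only its R153A values brought into the test. The carnitine shuttle carries fatty acids into mitochondria, and its genes moved in both directions. Cpt1a (from 4.72 ± 0.380 to 1.42 ± 0.0436 FPKM) and Slc25a20 (from 18.1 ± 0.763 to 6.81 ± 0.140 FPKM) fell (limma adjusted p = 1.6e-07 and 1.3e-08). Cpt2, also of the shuttle and named after its value was seen, rose without overlap (log2 fold change 0.27, limma adjusted p = 0.00381). Cpt1c, a form of Cpt1 known from the brain, rose from 8.83 ± 1.15 to 21.3 ± 1.05 FPKM. Acadl, an acyl-CoA dehydrogenase, rose from 7.20 ± 0.225 to 12.9 ± 0.871 FPKM. Ppara and Ppargc1a did not pass the filter.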

How the data were processed

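RNA-seq of 6 libraries, 3 WT and 3 R153A, was grouped by the sample titles. The authors deposited FPKM in 1 table, with a column for each library. The submitters' processing notes name edgeR 3.26.8, HTSeq 0.11.2, Bowtie2 2.3.4.3, SAMtools 1.9 and the build mm9, without saying what each did. Which tool computed FPKM, and with what annotation, strand setting or filters, is not given in the sources used here. Low values showed no step worth 1 read, so neither counts nor depth could be recovered and no count test was possible.

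Values were used as deposited, as log2(FPKM + 1), for genes that reached 1 FPKM in 3 or more of the 6 libraries. Genes were tested with limma 3.58.1 (R 4.3.3), moderated with a mean-variance trend and two-sided, and p-values were adjusted by the Benjamini-Hochberg method over the 11817 genes, with a threshold of 0.05. The fit was also tested on simulated data, in which far fewer genes changed than were called here. The members, gene lists and tests were chosen with earlier results of these data known. All members are given. From each other list up to 4 called genes with the largest changes are named. Results for some genes of these lists are not reported here. Promoters came from RefSeq (GRCm38.p6). Shared exons and transcripts came from GENCODE M21 (same bases in the basic annotation, or blastn alignments of at least 100 bases at 95% identity). Alternatives were pseudocounts of 0.1 and 0.5, no filter and a filter of 5 FPKM, 3 scalings (median-ratio over genes of at least 1 FPKM in every library, TPM and quantile), robust moderation, limma without a trend, a replicate block, and leaving out each library. Python 3.11.15 with matplotlib 3.10.9 drew the figures.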

Additional observations from a re-analysis of the deposited data

How the results depend on the processing

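The 19 member calls kept their direction and their side of the threshold in all alternatives that tested them (Acss2 was not tested at 5 FPKM). Under scaling, the median log2 fold change of all genes moved from 0.071 to 0.018 (median-ratio) and -0.022 (quantile). The filter of 5 FPKM left 2901 genes called higher, with fewer genes tested. The sterol branch had 2 members called lower instead of 1 under each of the 3 scalings and the replicate block, and 1 to 2 with a library left out, with Pmvk as the added gene. SREBP regulators called higher were 2 with no filter and 1 to 2 with a library left out, and 1 was called lower under median-ratio scaling. The 8 fatty acid genes held 3 called lower. The difference of the branch medians ranged from 0.21 (without WT replicate 2) to 0.32 (without WT replicate 3).

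Changes of sign occurred for members that had not passed. They were Mvd (-0.019 median-ratio, -0.0041 quantile), Scd1 (-0.031, -0.0038), Insig2 (-0.0077, -0.078) and Nsdhl (-0.0098 median-ratio). With a library left out, Tm7sf2 ranged from -0.14 to 0.020 and Acaca from -0.068 to 0.040. The log2 ratio of Srebf2 to Srebf1 ranged from -0.061 to 0.021. The cause was not tested. Counts for the other gene lists were compared under the same alternatives after seeing the data, and 24 of 320 moved by over 1.5 times. The replicate block gave 6876 calls over all genes against 7062. Deviations from the group means of same-numbered libraries correlated at -0.049, -0.0095, 0.060 for replicates 1, 2 and 3, so the numbers were not taken as pairs. Read depth is unknown, and 3 libraries per group limit the precision.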
